A study of Mus musculus with 10 samples.

Results

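The cadherins described here are 9 genes, Cdh1, Cdh2, Cdh3, Cdh4, Cdh6, Cdh10, Cdh11, Cdh13 and Cdh18, of 19938 genes with a probe set of their own on the array. Each gene was represented by probe sets that name it alone, and where a gene had several, by the probe set with the highest mean over the 10 arrays. The probe set was thus selected on its mean level, which mattered for Cdh18 alone, whose probe sets had means of 5.76 and 5.45 log2. The other 8 genes had 1 such probe set each, and 3 probe sets that name Cdh11 together with other genes were not used. The 9 genes were picked with earlier results of these data known, so the tests on them describe these arrays and are not independent evidence.

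The arrays measured mesenchymal stromal cells, which grow attached to plastic and resemble fibroblasts, from the bone marrow of female C57BL/6J mice 6 to 8 weeks old. There were 5 independent preparations, MSC I to MSC V, at passage 16 to 17, grown in MesenCult medium with a 20% mesenchymal supplement, with 2 arrays each and no treatment. No preparation was a control, and the labels do not say whether the 2 arrays of a preparation came from separate cultures, and p-values therefore rest on a spread between arrays that may be technical. Long passage in culture limits these cells as a model of marrow stroma.

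Cadherins are calcium-dependent adhesion proteins that join neighbouring cells through their outer repeats. The classical members carry an inner tail that binds catenins, which link the junction to actin and hold beta-catenin at the membrane. Type I classical cadherins include E-cadherin (Cdh1), N-cadherin (Cdh2), P-cadherin (Cdh3) and R-cadherin (Cdh4), and type II includes Cdh6, Cdh10, Cdh11 and Cdh18. T-cadherin (Cdh13) has no inner tail and is held in the membrane by a lipid anchor, where it also binds adiponectin. N-cadherin and cadherin-11, also called OB-cadherin, are the members best known in mesenchymal and bone-forming cells, and E-cadherin is the main cadherin of epithelia.

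The arrays were alike in scale, with medians between 6.45 and 6.63 log2 and a median of 6.55 over the whole table. The 2 arrays of a preparation correlated at 0.971 to 0.982 across 10971 tested genes. Of 11 stromal markers, between 8 and 10 lay above the table's median on every array, among them vimentin (Vim), fibronectin (Fn1) and the collagen genes Col1a1 and Col1a2. The defining markers Eng, Thy1 and Nt5e did not follow the label everywhere. Eng, the surface protein endoglin, was at 9.60 ± 0.13 (SD, n = 2) in MSC IV and between 5.58 and 5.78 in the means of the other preparations. Thy1, a surface glycoprotein, had its highest mean in MSC II, at 7.19 ± 0.71 (n = 2). Means of Nt5e ran from 5.92 in MSC I, under the table's median, to 11.2 in MSC IV. Those of the stromal marker Pdgfra ran from 7.11 in MSC IV to 11.46 in MSC I. Markers of other cells were low: 9 of 10 epithelial, 9 of 10 endothelial, 8 of 9 blood cell, 6 of 6 glial and 8 of 8 skeletal muscle markers lay above the table's median on no array. The exceptions were Krt19, Egfl7 and Cd68. Fewer cells of a type and less RNA per cell cannot be told apart in such bulk samples.

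The test took genes with a value above the table's median on 2 or more arrays, which held for 5 of the 9 cadherins: Cdh2, Cdh3, Cdh11, Cdh13 and Cdh18. Cdh18 lay just inside that limit, with 2 arrays above it, and Cdh10 just outside, with 1. Because Cdh18 passed only through the MSC V arrays, it had to differ there, and its values are given as a description with no test. A gene was called over all preparations at an adjusted p under 0.05 in limma's moderated F test, with a range of preparation means of at least 1 log2, a fold of 2. By that rule 29.1% of all tested genes were called, and so were the tested cadherins Cdh2, Cdh3, Cdh11 and Cdh13. Cdh18 was past the same limits, as its entry into the test required it to be high in MSC V, so nothing is read from the count of 5 of 5. Against the mean of the other four, 0 cadherins were called higher in MSC I (7.73% of all genes), 0 lower in MSC III (0.957%) and 0 lower in MSC V (1.44%) by limma. The nearest was Cdh11 in MSC I, 0.99 higher with an adjusted p of 0.0291. All 5 MSC V differences were above 0, that of Cdh18 by its selection. For Cdh2 and Cdh3 the mean of the other four holds the low MSC I arrays. With MSC I left out of that mean, Cdh2 in MSC V was at -0.22 (adjusted p = 0.462, limma) and Cdh3 at 0.36 (adjusted p = 0.195). Over the 10 pairs of preparations the 5 genes gave 24 calls, 4 of them of Cdh18 against MSC V, where 9.56% of all gene and pair combinations were called. The plot of levels by array shows all 9 genes.

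**Figure D1:**
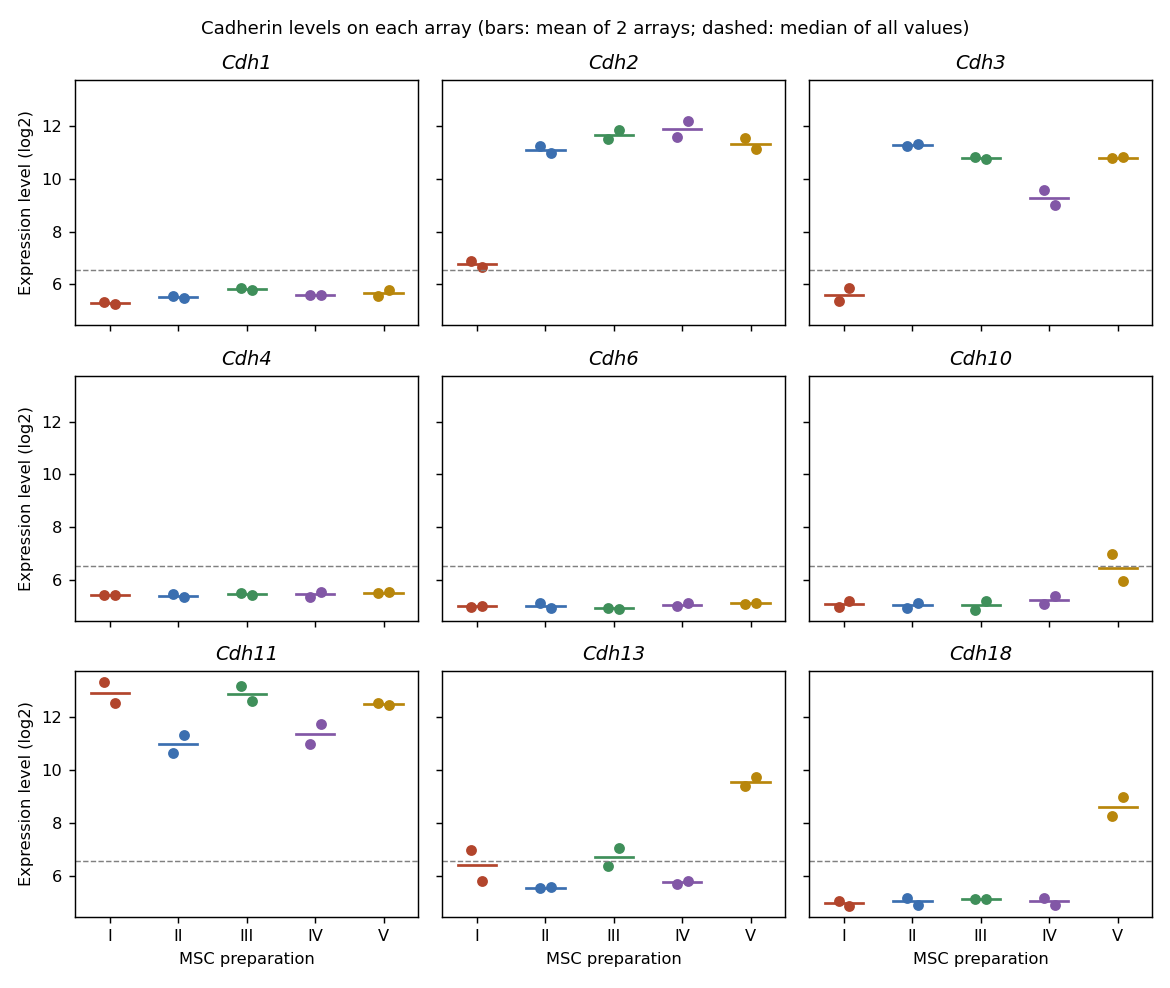
Log2 expression level of each cadherin (y axis) on both arrays of each preparation (x axis, points), with the preparation mean as a bar and the median of all values, 6.55, as a dashed line. Cdh2 and Cdh3 are low in MSC I alone, Cdh13 and Cdh18 are high in MSC V alone, and Cdh1, Cdh4 and Cdh6 stay under the dashed line.

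N-cadherin was present at similar levels in 4 preparations and was low in MSC I. The Cdh2 probe set read 6.88 and 6.67 log2 on the MSC I arrays. It read 11.24 and 10.96 in MSC II, 11.50 and 11.82 in MSC III, 11.57 and 12.17 in MSC IV and 11.53 and 11.11 in MSC V. Both MSC I arrays lay far below every other array, and the MSC V arrays overlapped with those of MSC II and MSC III, while both MSC II arrays lay below those of MSC III and MSC IV. MSC I was -4.71 ± 0.19 log2 (SE) from the mean of the other four (adjusted p = 2.6e-06, limma), where 5.22% of all genes were called lower in MSC I. In pairs, MSC I differed from MSC II by -4.32 ± 0.24 and from MSC IV by -5.10 ± 0.24, a fold of 34.2 (adjusted p = 7.3e-06). RMA, the summary used by the submitters, compresses low values, so folds against a level as low as that of MSC I may be understated.

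Among the other preparations the order of Cdh2 means was MSC II, V, III and IV, from 11.10 to 11.87. No pair of these passed the test: MSC II minus MSC V was -0.22 (adjusted p = 0.564), MSC III minus MSC V was 0.34 (adjusted p = 0.435), and MSC III minus MSC IV was -0.21 (adjusted p = 0.595). The ends of that order, MSC II minus MSC IV, differed by -0.77 ± 0.24 (adjusted p = 0.0664). Against the mean of the other four, MSC III (1.40) and MSC IV (1.66, adjusted p = 0.000938) were called higher, where 1.31% and 3.29% of all genes were called higher. When MSC I was dropped from the reference these differences were 0.23 (adjusted p = 0.516) and 0.51 (adjusted p = 0.102). Leaving out either MSC III array also ended the Cdh2 call of that preparation (adjusted p = 0.0623 without replicate 1 and 0.118 without replicate 2). That of MSC V (0.97) passed the minimum of 1 without MSC II replicate 1 (1.00), MSC III replicate 2 (1.01) or MSC IV replicate 2 (1.04).

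P-cadherin was low in MSC I as well, and in addition lower in MSC IV than in the 3 remaining preparations. The Cdh3 probe set read 5.37 and 5.87 log2 in MSC I, under the table's median on both arrays. It read 11.23 and 11.31 in MSC II, 10.81 and 10.74 in MSC III, 9.56 and 9.0 in MSC IV and 10.78 and 10.82 in MSC V. The arrays thus fell into 3 separate levels, with MSC I lowest, MSC IV between and MSC II, III and V on top. MSC I was -4.91 ± 0.17 from the mean of the other four (adjusted p = 1.22e-06) and -5.65 ± 0.22 from MSC II, a fold of 50.2 (adjusted p = 3.01e-06). MSC I minus MSC IV was -3.66 ± 0.22 (adjusted p = 1.83e-05).

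MSC II lay above MSC IV by 1.99 ± 0.22 (adjusted p = 0.00111) and MSC III by 1.49 ± 0.22 (adjusted p = 0.00494), and MSC IV minus MSC V was -1.52 ± 0.22 (adjusted p = 0.00368). Neighbours at the top did not pass the test. MSC II minus MSC V was 0.47 ± 0.22 (adjusted p = 0.179), and MSC III minus MSC V was -0.03 ± 0.22 (adjusted p = 0.955). Against the other four, MSC IV was at -0.34 ± 0.17 (adjusted p = 0.166), where that mean holds the low MSC I arrays. When MSC I was dropped from the reference MSC IV was called lower (-1.67 ± 0.18, adjusted p = 0.000876), where 6.37% of all genes were. MSC II (2.15), MSC III (1.53) and MSC V (1.56) were called higher against the other four, where 2.45%, 1.31% and 2.11% of all genes were. Without MSC I in the reference these Cdh3 differences were 0.99, 0.32 and 0.36, all under the minimum of 1. Either MSC III array, when left out, ended the Cdh3 call of MSC III (adjusted p = 0.0598 and 0.0580).

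Cdh1, the gene next to Cdh3 on chromosome 8, was low in every preparation. There are 0 protein-coding genes between them in the mouse reference (GRCm38.p6). E-cadherin lay under the table's median on all 10 arrays, from 5.26 to 5.87 log2 with a median of 5.57. Its preparation means spanned 0.52 log2, with the lowest in MSC I and the highest in MSC III. R-cadherin, Cdh4, was also under the median throughout and spanned 0.12 log2 in preparation means, from 5.42 in MSC II to 5.53 in MSC V. Low array values do not show that these transcripts were absent. In a fit of all 19938 genes without the limit on low values, limma gave Cdh1 an adjusted p of 0.0270 and Cdh4 one of 0.750 over all preparations, and neither reached a range of 1. In that fit MSC I was -0.35 ± 0.07 from the other four for Cdh1 (adjusted p = 0.0119). That is the direction of Cdh3, under the minimum of 1, and its size cannot be compared so near the low end.

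**Figure D2:**
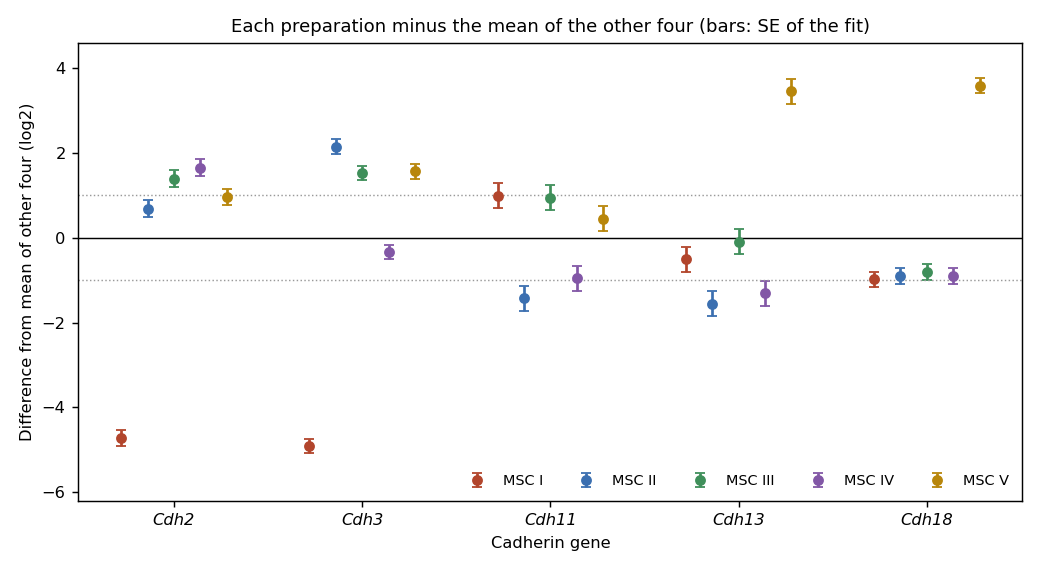
Difference of each preparation from the mean of the other four (y axis, log2; points) with the standard error of the fit (bars) for the 5 tested cadherins (x axis), and dotted lines at the minimum of 1 either way. MSC I lies near -4.7 and -4.9 for Cdh2 and Cdh3, and MSC V near 3.5 and 3.6 for Cdh13 and Cdh18.

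Cadherin-11 was high in all preparations and had the smallest range of means of the 5 tested cadherins. Its probe set read 13.32 and 12.55 log2 in MSC I, 13.18 and 12.61 in MSC III and 12.55 and 12.47 in MSC V. It read 10.67 and 11.33 in MSC II and 11.0 and 11.76 in MSC IV. The 4 arrays of MSC II and MSC IV lay below the 6 others and overlapped each other, and the MSC I arrays overlapped with those of MSC III and MSC V, while both MSC V arrays lay below those of MSC III. Replicates of Cdh11 were further apart than those of Cdh3, with an SD of 0.55 in MSC I and 0.54 in MSC IV. The range of means was 1.93 log2 (adjusted p = 0.00986).

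MSC II was the preparation with a Cdh11 call against the other four, at -1.43 ± 0.29 (adjusted p = 0.0151), where 2.69% of all genes were called lower. It was not called when either MSC II array was left out, at -1.10 (adjusted p = 0.114) without replicate 1 and at -1.76 (adjusted p = 0.0507) without the other. MSC I (0.99) and MSC IV (-0.95, adjusted p = 0.0415) stayed just under the minimum of 1. MSC I passed it when 1 of 4 arrays was left out: replicate 2 of MSC I (1.37), of MSC II (1.07) or of MSC IV (1.08), or replicate 1 of MSC III (1.06). MSC IV passed it without replicate 2 of MSC I (-1.05), replicate 1 of MSC II (-1.04) or replicate 2 of MSC III (-1.02). With MSC V left out of the reference MSC I was called higher in Cdh11 (1.17 ± 0.30, adjusted p = 0.0162), where 8.65% of all genes were.

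In pairs, MSC I lay 1.93 ± 0.37 above MSC II, a fold of 3.82 (adjusted p = 0.00613), and this pair kept its call without any single array. MSC I was 1.55 ± 0.37 above MSC IV (adjusted p = 0.0119), a call that ended when replicate 1 of MSC I (adjusted p = 0.0736) or of MSC IV (adjusted p = 0.0667) was left out. MSC II minus MSC III (-1.90, adjusted p = 0.0274) lost its call without any of its own 4 arrays (adjusted p = 0.0660 to 0.157). MSC II minus MSC V (-1.51, adjusted p = 0.0354) did so likewise (0.0627 to 0.152), as did MSC III minus MSC IV (1.52, adjusted p = 0.0334; 0.0577 to 0.144). With the replicate number as a block these 3 pairs had adjusted p = 0.0680, 0.0718 and 0.0656, and without the limit on low values the last 2 had adjusted p = 0.0606 each. MSC IV minus MSC V was -1.13 ± 0.37 (adjusted p = 0.0619) and was not called.

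T-cadherin was high in MSC V. The Cdh13 probe set read 9.40 and 9.73 log2 on the MSC V arrays. It read 6.99 and 5.81 in MSC I, 5.53 and 5.57 in MSC II, 6.39 and 7.07 in MSC III and 5.69 and 5.82 in MSC IV. Both MSC V arrays lay above all others, and the MSC I and MSC III arrays fell on either side of the table's median. MSC V was 3.45 ± 0.30 above the mean of the other four (adjusted p = 0.000908), where 2.11% of all genes were called higher. In pairs it differed from MSC II by -4.01 ± 0.37 (MSC II minus MSC V), a fold of 16.1 (adjusted p = 0.00119). The smallest of its pair differences was MSC III minus MSC V, at -2.83 ± 0.37 (adjusted p = 0.00958), a call that ended when MSC III replicate 1 (adjusted p = 0.0768) or MSC V replicate 2 (adjusted p = 0.0688) was left out.

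Among the other preparations no Cdh13 pair was called. MSC III, the next in order, differed from MSC II by -1.18 ± 0.37 (MSC II minus MSC III, adjusted p = 0.105) and MSC I from MSC II by 0.85 ± 0.37 (adjusted p = 0.109). MSC II (-1.56) and MSC IV (-1.31) were called lower against the other four, where 2.69% and 7.70% of all genes were. With MSC V left out of the reference their differences were -0.74 (adjusted p = 0.128) and -0.47 (adjusted p = 0.267). These Cdh13 calls were also lost without either replicate of MSC II (adjusted p = 0.0701 and 0.0847) or of MSC IV (adjusted p = 0.0848 and 0.0932). The MSC I arrays disagreed: its difference was -0.50, but -1.09 (adjusted p = 0.0269) without MSC I replicate 1 and 0.0886 (adjusted p = 0.811) without replicate 2.

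Adipoq encodes adiponectin, the fat cell hormone that binds T-cadherin. It read 10.97 and 9.94 log2 in MSC I and between 4.80 and 5.17 on the other arrays, a difference of 5.44 ± 0.25 for MSC I, given with no p because the MSC I arrays alone brought it into the test. The preparation high in the ligand gene was thus not the one high in the receptor gene: Cdh13 had a mean of 6.40 ± 0.83 (SD, n = 2) in MSC I and Adipoq one of 4.99 ± 0.19 in MSC V.

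Cadherin-18, a type II cadherin known chiefly from the nervous system, was high in MSC V alone. Its probe set read 8.27 and 8.98 log2 in MSC V and between 4.88 and 5.17 on the other 8 arrays, with no overlap. MSC V was 3.59 ± 0.18 above the mean of the other four. Its pair differences ran from -3.65 (MSC I minus MSC V, a fold of 12.6) to -3.51 (MSC III minus MSC V). No p is given, since these 2 arrays brought the gene into the test. Without either MSC V array Cdh18 no longer passed the limit on low values and was not tested. The other probe set of Cdh18 read 6.62 and 7.16 in MSC V and between 4.94 and 5.29 elsewhere, the same order with a smaller distance.

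The other preparations did not separate in Cdh18. Their differences from the other four, a mean that holds MSC V, were -0.98 (MSC I), -0.90 (MSC II), -0.80 (MSC III) and -0.90 (MSC IV). With MSC V left out of the reference they were -0.0892, -0.00631, 0.10 and -0.00675. MSC I passed the minimum of 1 without MSC I replicate 1 (-1.08), MSC II replicate 2 or MSC IV replicate 2 (-1.01 each), and MSC IV without MSC IV replicate 1 (-1.03). Leaving MSC I out of that mean instead, so that MSC V weighs more in it, the differences were -1.22 (MSC II), -1.12 (MSC III) and -1.22 (MSC IV).

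Cadherin-10, another type II cadherin of the nervous system, had its highest arrays in the same preparation. It read 7.0 and 5.96 log2 in MSC V and between 4.89 and 5.39 on the other 8 arrays. Both MSC V arrays lay above the rest, but they were 1 log2 apart and only replicate 1 was above the table's median. In the fit without the limit on low values MSC V was 1.37 ± 0.25 above the other four (adjusted p = 0.0267). Cdh6, a type II cadherin of kidney and neural crest, lay between 4.93 and 5.14 on all arrays, with a range of means of 0.18 (adjusted p = 0.433 in that fit).

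Cdh6, Cdh9, Cdh10, Cdh12 and Cdh18 follow each other on chromosome 15 in the mouse reference, with 1 protein-coding gene between Cdh12 and Cdh18 and 0 between the others. Cdh12, which lies between Cdh10 and Cdh18, had preparation means from 5.02 to 5.11, and Cdh9, between Cdh6 and Cdh10, from 4.94 to 5.07. Cdh10 and Cdh18 both had their highest arrays in MSC V, and the 250 bases before their start sites are shown for that reason, from RefSeq (GRCm38.p6, plus strand). Capitals mark CANNTG, the E-box bound by many helix-loop-helix and zinc finger factors, and CCAAT on either strand; the marked motifs do not overlap.
Cdh10, chr15:18820079-18820328: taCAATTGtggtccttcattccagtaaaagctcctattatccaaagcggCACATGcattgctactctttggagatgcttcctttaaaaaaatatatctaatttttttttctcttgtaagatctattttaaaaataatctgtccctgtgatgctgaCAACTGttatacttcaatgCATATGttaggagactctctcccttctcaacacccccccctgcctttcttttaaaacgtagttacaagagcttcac
Cdh18, chr15:23036213-23036462: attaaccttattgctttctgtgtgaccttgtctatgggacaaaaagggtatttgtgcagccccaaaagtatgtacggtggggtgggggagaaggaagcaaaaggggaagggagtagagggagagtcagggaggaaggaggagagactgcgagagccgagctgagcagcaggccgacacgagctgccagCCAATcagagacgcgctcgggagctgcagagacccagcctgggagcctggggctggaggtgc

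The Cdh10 window held 4 CANNTG motifs and no CCAAT, and the Cdh18 window held no CANNTG and 1 CCAAT. Of 32851 promoter windows of the same length, 66.2% held CANNTG and 33.8% held CCAAT. The E-box forms CAGGTG and CACCTG, known from SNAI and ZEB factors, were in neither window and in 17.2% of all windows. The Cdh10 window had 2 CpG pairs and a GC content of 36.8%, against 8 and 58.0% for Cdh18 and medians of 6 and 52.4% over all windows. These letters describe the windows and are not sites of binding.

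The counts by pair follow these levels. Of the 5 tested cadherins, Cdh18 was past the limits in each pair with MSC V by its selection and is left out of those pairs here. MSC I and MSC V differed in Cdh2, Cdh3 and Cdh13 and not in Cdh11, where 10.5% of all genes were called. MSC I differed from MSC II in 3 (14.9% of all genes), from MSC IV in 3 (20.3%) and from MSC III in 2 (11.3%). MSC V differed from MSC II in Cdh11 and Cdh13 (5.56%), from MSC IV in Cdh3 and Cdh13 (10.9%) and from MSC III in Cdh13 (2.07%). MSC III and MSC IV differed in Cdh3 and Cdh11 (7.99%), MSC II and MSC III in Cdh11 alone (3.02%), and MSC II and MSC IV in Cdh3 alone (9.06%).

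The calls against a mean of other preparations depended on which preparations that mean held. With MSC I left out, Cdh13 was called higher in MSC V (2.78% of all genes), Cdh18 was past the same limits by its selection, and 0 were lower there (1.37%). None was then called higher in MSC II (2.53%), MSC III (1.23%) or MSC IV (2.63%). Called lower were Cdh11 and Cdh13 in MSC II (1.93%) and Cdh3 and Cdh13 in MSC IV (6.37%). Cdh18 was past the limits in these and in MSC III (0.647%), against a mean that holds its high MSC V arrays. With MSC V left out, Cdh2 and Cdh3 stayed lower in MSC I (5.91%), Cdh3 was higher in MSC II (2.85%) and Cdh11 lower there (2.93%). Cdh2 and Cdh3 were then higher in MSC III (1.93%), with 0 lower (1.57%), and Cdh2 was higher in MSC IV (3.64%), with 0 lower (8.03%). The low Cdh2 and Cdh3 of MSC I and the high Cdh13 of MSC V were called with the full reference and with these reduced ones.

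Among themselves the tested cadherins formed 2 groups across the 10 arrays. Cdh2 and Cdh3 correlated at r = 0.88 and Cdh13 and Cdh18 at r = 0.94, while Cdh11 had r = -0.42 with Cdh2 and 0.47 with Cdh13. These values come from 5 preparations with 2 arrays each and mostly reflect the low MSC I and the high MSC V, so they are descriptions.

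The genes with the pattern most like each tested cadherin were taken by the highest Pearson r over the 10 arrays. For Cdh2 they were Bnip1 (0.987), Emp2 (0.986) and Pde8a (0.980). Emp2, a small membrane protein of epithelia, had a mean of 7.13 log2 in MSC I and 11.58 to 12.40 elsewhere. For Cdh3 they were Epb41l4a (0.997), B4galnt1 (0.992) and Csrp2 (0.989), and Epb41l4a followed the same 3 levels, with 6.28 in MSC I, 9.20 in MSC IV and 10.50 to 10.60 elsewhere. For Cdh11 they were Igsf8 (0.971), Phlda3 (0.966) and Islr (0.939). For Cdh13 they were Vps26b (0.957), Hoxa13 (0.955) and Timm29 (0.948), and for Cdh18 Itgbl1 (0.998), Hoxa13 (0.983) and Pax9 (0.969). Hoxa13, a positional transcription factor, was thus in both lists, with a mean of 8.56 in MSC V and 5.30 to 5.98 elsewhere. Itgbl1, Hoxa13 and Pax9 had means above the table's median in MSC V alone, as did Cdh18. Their r with Cdh18 thus mostly reflects the high MSC V, and nothing further is read from the place of Hoxa13 in both lists. Among all the genes listed, Spearman correlations ran from 0.564 (Pde8a with Cdh2) to 0.976 (Igsf8 with Cdh11), with 0.648 for Pax9 with Cdh18.

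Most of the remaining classical and related cadherins were low on every array. Of 14 such genes, 12 lay above the table's median on no array, among them Cdh5, the cadherin of endothelium, and Cdh15, the cadherin of muscle cells. Cdh17 and Cdh24 were tested. Cdh17, a cadherin of gut epithelium, read 6.34 and 7.26 log2 in MSC II and 7.34 and 6.00 in MSC V, and the MSC V arrays overlapped with those of MSC III. Limma called 0 of the 2 over all preparations (Cdh17 adjusted p = 0.0710, Cdh24 adjusted p = 0.518), where 29.1% of all genes were called. Of these 2, 1 had an unadjusted p under 0.05. Without MSC V replicate 2 the count was 1.

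Among larger members of the superfamily there were wide differences as well. Of 23 protocadherins, Fat and related genes with a probe set of their own, 8 were tested and 5 called over all preparations (29.1% of all genes), among them Fat3, tested through its high group only, with a median range of 2.28 log2 against 0.75 over all tested genes. Pcdh7, a protocadherin of heart and brain, read 10.57 and 10.40 log2 in MSC I and between 5.97 and 8.49 elsewhere (3.56 ± 0.32 for MSC I, adjusted p = 0.000152), where 7.73% of all genes were called higher. Its arrays were thus high where those of Cdh2 and Cdh3 were low. Pcdh19, which can join N-cadherin in one adhesion complex, was lowest in MSC IV, at 6.45 and 6.33 (-3.25 ± 0.18, adjusted p = 4.48e-05). Pcdh19 was called higher in MSC II (1.90) and MSC V (1.40), against means that hold the low MSC IV arrays. Its means were 8.52 in MSC I, 9.40 in MSC III, 10.10 in MSC V and 10.51 in MSC II.

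Dchs1 and Fat4 encode a receptor and ligand pair that orients cells in a tissue plane. Dchs1 read 6.32 and 5.58 log2 in MSC I and 9.47 and 10.20 in MSC II. It was called lower in MSC I (-2.50 ± 0.39, adjusted p = 0.0023) and higher in MSC II (2.36), a call lost without MSC II replicate 2 (adjusted p = 0.0812). Its call in MSC IV (1.37, adjusted p = 0.0332) was lost without MSC I replicate 2, either array of MSC III or MSC IV replicate 2 (adjusted p = 0.0530 to 0.289), without the limit on low values (0.0637) and with the replicate block (0.0563). Fat4 was lower in MSC IV (-2.41 ± 0.62, adjusted p = 0.0227), lost without MSC IV replicate 2 (adjusted p = 0.218), and was not called over all preparations (adjusted p = 0.0794). Fat3 read 7.53 and 7.55 in MSC IV and at most 5.67 elsewhere, a difference of 1.97 ± 0.10, and entered the test through the MSC IV arrays alone.

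**Figure D3:**
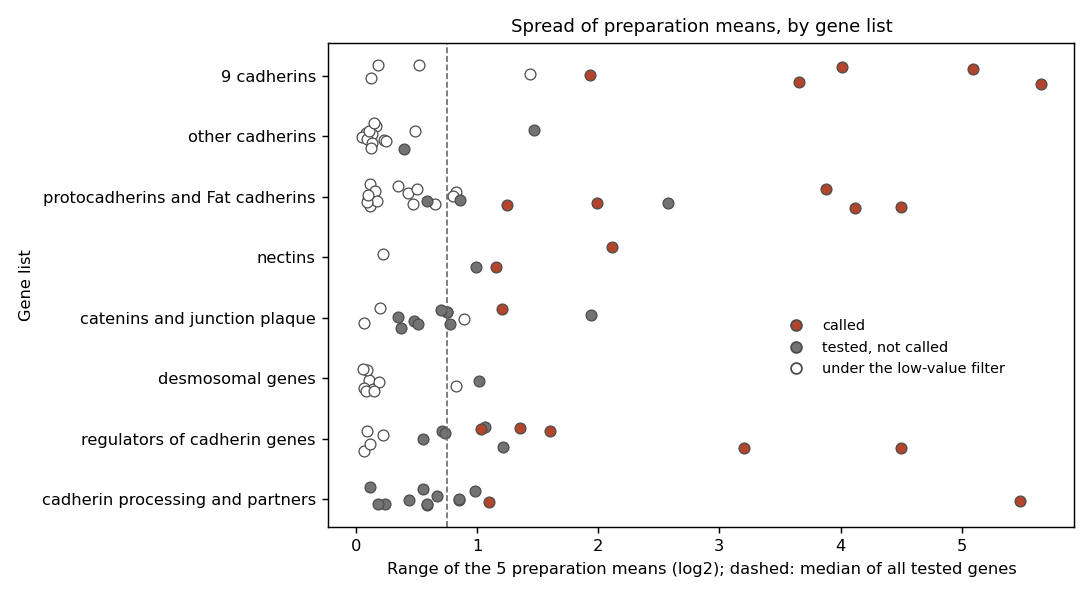
Range of the 5 preparation means (x axis, log2) of each gene (points) in the cadherins and the lists around them (y axis). Filled red points were called over all preparations, grey points were tested and not called, and open points did not pass the limit on low values. The calls of Cdh18, Fat3 and Adipoq were fixed by their entry into the test through their high preparation. The dashed line is the median of all tested genes, 0.75. In the lists plotted, genes beyond 3 log2 are among the cadherins, the protocadherins, the regulators and, with Adipoq, the partners, while the plaque genes stay under 2.

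The catenin and plaque genes had a median range near that of all genes, though ranges of those tested ran from 0.34 (Ctnna1) to 1.94 log2 (Jup). Of 13 catenin and plaque genes with a probe set of their own, 10 were tested and 1 called, Vcl, where 29.1% of all genes were called. Their median range was 0.73 log2 against 0.75 over all tested genes. Beta-catenin, Ctnnb1, had preparation means from 12.07 (MSC III) to 12.45 (MSC V) and was not called (range 0.37, adjusted p = 0.0503). Alpha-catenin, Ctnna1, spanned 0.34 log2 (adjusted p = 0.190), with 11.04 and 11.07 in MSC I. The call of Vcl, the actin linker vinculin, is a range of 1.21 (adjusted p = 0.0340) and was lost without either MSC I array, MSC II replicate 2, MSC III replicate 1 or either MSC IV array (adjusted p = 0.0511 to 0.135).

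Of 10 plaque, 3 nectin and 1 desmosomal genes tested, 2 were called higher in MSC I, Jup and Nectin2, where 7.73% of all genes were. Jup, plakoglobin, which binds cadherins of junctions and desmosomes, read 11.59 and 10.69 log2 in MSC I and between 8.74 and 10.27 elsewhere (1.56 ± 0.37 for MSC I, adjusted p = 0.0126), lost without MSC I replicate 1 (adjusted p = 0.132). Nectin2, an adhesion protein of the immunoglobulin class, read 9.02 and 10.30 in MSC I, overlapping with MSC III (1.43 ± 0.31, adjusted p = 0.00904). Without MSC I replicate 2 it was at 0.79 (adjusted p = 0.0567). Of 4 nectin genes 3 were tested and 2 called over all preparations (29.1% of all genes), Nectin2 and Nectin3, with a median range of 1.15 log2. Nectin3 fell under the minimum of 1 without MSC IV replicate 2 (0.96). Desmosomal genes were low: 8 of 10 lay above the table's median on no array. Limma called 0 of the 1 tested (29.1% of all genes), Pkp2 (adjusted p = 0.0676, with 1 at an unadjusted p under 0.05). Pkp2 was called without either MSC I array.

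Of 14 transcription factors known to control cadherin genes 10 were tested and 5 called over all preparations (29.1% of all genes), with a median range of 1.14 log2. Zeb2, a repressor of E-cadherin, read 11.76 and 11.67 log2 in MSC I and between 10.10 and 10.66 elsewhere (1.30 ± 0.0836, adjusted p = 2.82e-05). Twist2 read 10.14 and 9.92 in MSC I and 5.77 and 5.30 in MSC IV, with calls higher in MSC I (2.93 ± 0.46) and lower in MSC IV (-2.69 ± 0.46). The second was lost without MSC IV replicate 2 (adjusted p = 0.0617). Foxc2 read 6.70 and 6.77 in MSC I and 6.49 and 5.93 in MSC IV, against 8.62 to 9.63 in the other 3 (MSC I -1.63 ± 0.17, adjusted p = 0.0003; MSC IV -2.29 ± 0.17, adjusted p = 0.000131).

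Zeb1, the closest relative of Zeb2, had its lowest mean in MSC I, 9.95, and its highest in MSC II, 11.31 (range 1.35, adjusted p = 0.00226), with MSC I at the opposite end from Zeb2. Tcf3 was called with a range of 1.03, which was 0.86 without MSC II replicate 2. Snai1 (range 1.21, adjusted p = 0.0692), Snai2 (range 1.07, adjusted p = 0.112) and Twist1 (range 0.71, adjusted p = 0.0490) were not called. The epithelial factors Grhl2, Ovol1 and Ovol2 lay above the table's median on no array.

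**Figure D4:**
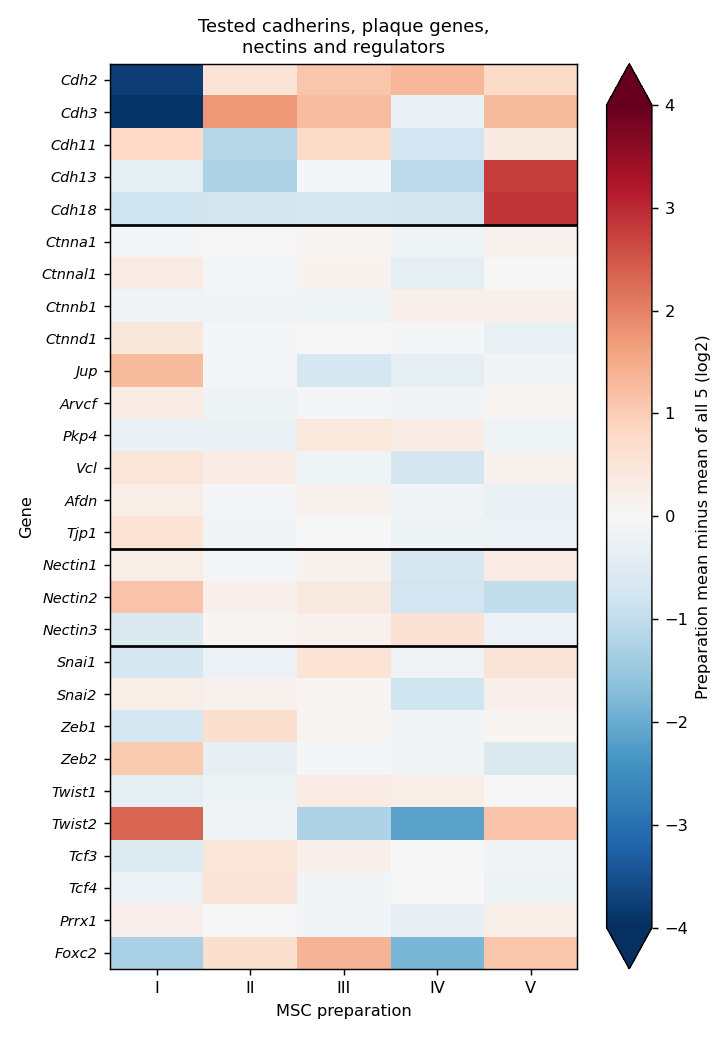
Preparation mean minus the mean of all 5 preparations (colour, log2, limited to 4 either way) for the tested cadherins, catenin and plaque genes, nectins and regulators (rows, separated by black lines) in each preparation (columns). Cdh2 and Cdh3 are blue and Twist2 red in MSC I, Cdh13 and Cdh18 are red in MSC V, and Ctnna1 and Ctnnb1 are pale in every column.

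Enzymes that process cadherins and partners of the protein were mostly level. Of 13 such genes, all tested, the gamma-secretase subunit Ncstn was called over all preparations (range 1.10, adjusted p = 0.00233), where 29.1% of all genes were called. Adipoq was past the same limits, as its entry into the test required it to be high in MSC I, so nothing is read from the count of 2. The median range, with Adipoq included, was 0.59 log2. Ncstn fell under the minimum of 1 without MSC II replicate 1 (0.97), and Adipoq, above the table's median in MSC I alone, was not tested without either MSC I array. The sheddase Adam10, which cuts N-cadherin at the cell surface, spanned 0.58 log2 (adjusted p = 0.0444), and Furin, which removes the cadherin propeptide, spanned 0.44 (adjusted p = 0.105). Fgfr1, a growth factor receptor that N-cadherin can bind, had its lowest mean in MSC I, 10.41, and 11.09 to 11.26 elsewhere (range 0.85, adjusted p = 0.0346), under the minimum of 1.

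Of 9 genes commonly induced by beta-catenin, 6 were tested, and Lef1, Nkd1, Lgr5 and Ccnd1 were called over all preparations (29.1% of all genes). Rnf43 was past the same limits, but it entered the test through its high MSC IV arrays alone. It is given with no p, and nothing is read from the count of 5 of 6. The median range, with Rnf43 included, was 2.58 log2. Directions of these genes were mixed. Lef1 (2.56 ± 0.22, adjusted p = 0.000128) and Nkd1 (1.85 ± 0.23, adjusted p = 0.000892) were higher in MSC I. Rnf43 differed by 2.37 ± 0.10 in MSC IV, Lgr5 was lower in MSC IV (-3.21 ± 0.34, adjusted p = 0.000652), and Ccnd1 was lower in MSC II (-1.29 ± 0.15, adjusted p = 0.00186).

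Among the markers of other cells, Krt19 and Cd68 differed between preparations. Krt19, a keratin of simple epithelia, was the epithelial marker above the table's median, at 9.20 and 10.47 log2 in MSC I, 7.20 and 8.42 in MSC III and 10.02 and 8.47 in MSC V. Of the blood cell markers Cd68, a lysosomal protein of macrophages that other cells also make, was higher in MSC V (1.60 ± 0.13, adjusted p = 0.000775), at 8.53 and 8.55 against 6.40 to 7.52 elsewhere. The defining markers Epcam and Esrp1 of epithelium and Ptprc, Itgam and Spi1 of blood cells stayed between 4.72 and 5.23 in all preparation means. Mean levels of the 10 epithelial markers ran from 5.25 to 5.81 over the arrays and those of the 9 blood cell markers from 5.24 to 5.62. The part of such cells in the cadherin differences was not tested.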

How the data were processed

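Total RNA of 10 biotin-labelled single-colour Affymetrix arrays was compared, 2 for each of 5 preparations, grouped by sample title. The deposited values were log2 expression levels of 35399 probe sets; the submitters' processing notes name RMA and Partek, whose versions are not given in the sources used here. The RMA method corrects background, equalises array distributions and compresses low values; no detection calls were used. The number of arrays limits the precision.

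Gene names of probe sets came from the annotation of the platform: 21789 had 1 symbol and were used, 1621 had several and 11989 none. Genes were keyed by that symbol; 21698 of the probe sets matched the mouse reference (GRCm38.p6) by gene identifier, which gave current symbols. Of 164 entries in 14 gene lists, 154 had a probe set of their own. A linear model of preparation means was fitted by limma 3.58.1 (lmFit, eBayes) under R 4.3.3, with figures made in Python 3.11.15, all arrays sharing 1 spread; contrasts were two-sided, with Benjamini-Hochberg adjustment over all tested genes, per comparison. Differences are called at an adjusted p under 0.05 and at least 1 log2. The code was tested on simulated data. Alternatives were no limit on low values, a limit at the 75th percentile of the table (9.22), averaging over the probe sets of a gene, arrays centred on medians, another round of quantile normalisation, trend and robust settings of eBayes, a replicate block, each array left out, and only the arrays of a pair; leaving MSC I or MSC V out of the reference was chosen after seeing the data.

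All 9 cadherins and every list entry could be named, as could the 3 genes most correlated with each tested cadherin, without predicted or clone names. The members and lists were chosen with earlier results of these data known.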

Additional observations from a re-analysis of the deposited data

How the results depend on the processing

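Cdh2, Cdh3 and Cdh11 kept their call over all preparations under each alternative, and Cdh18, high through its selection, under each that tested it. With no limit on low values 6 of 9 were called (Cdh10 added), and at the 75th percentile 4 of 4. In the main fit 29.1% of all genes were called over all preparations and 9.56% of all gene and pair combinations. Shares of all genes are not given for these 2 settings, or for the pair and single-array counts below. Such counts thus describe only how the calls moved. Cdh13 also kept its call, but it passed the limit at the 75th percentile only on its MSC V arrays (9.40 and 9.73). Its call at that setting was thus fixed by selection, and nothing is read from it. Calls over the 10 pairs were 24, 21 with the replicate block and 22 with only the 4 arrays of a pair. The 24 and the counts that follow include Cdh18 where it was tested, although its selection through MSC V fixed its calls there. Cdh18 left the test without either MSC V array. Without single arrays the counts ran from 4 to 5 over all preparations, from 18 to 27 over pairs, from 0 to 1 higher and 2 to 4 lower in MSC I, from 0 to 2 lower in MSC II, from 0 to 2 higher in MSC III and from 0 to 2 lower in MSC IV. The Cdh13 difference of MSC I ran from -1.09 to 0.0886 without single arrays (-0.50 with all), and turned without MSC I replicate 2. Leaving MSC I out of the reference, the higher cadherins were 0 in MSC II, 0 in MSC III and 0 in MSC IV, and the lower ones 1 in MSC III and 3 in MSC IV. The lower cadherin in MSC III was Cdh18, which was also among those of MSC IV, against a mean that holds its high MSC V arrays. With MSC V left out the called cadherins were 1 higher in MSC I, 1 lower in MSC II and 0 lower in MSC IV.

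Called catenin and plaque genes numbered 1, but 0 without the limit on low values or with the replicate block, and 2 with centred arrays, further quantile normalisation or trend and robust settings, and 0 to 2 without single arrays. At the 75th percentile nectins had 0 calls, beta-catenin targets 1 and blood cell markers 0, with 0, 1 and 0 genes tested; without the limit skeletal muscle markers had 1. Without single arrays the calls were 0 to 1 for other cadherins, 0 to 1 for desmosomal genes, 1 to 3 for nectins and 1 to 3 for processing genes and partners. The last of these counts includes Adipoq where it was tested, although its selection through MSC I fixed its call. The cause was not tested where none is given.

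The labels do not say whether the replicate numbers pair the samples. Deviations of the replicate 1 arrays correlated at -0.55 to 0.20 between preparations, and 1 of 10 correlations was above 0.1. These values show no shift common to all replicate 1 arrays. Correlations as low as -0.55 (MSC I and MSC II) and -0.51 (MSC III and MSC V) mean that the deviations were not unrelated, and their source was not tested. Apart from the Cdh11 pairs and the plaque genes, the block moved no count of cadherin calls by over 1.5 times. Signal near the low end of the arrays limits Cdh1, Cdh4, Cdh6 and Cdh10.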
